A study of Rattus norvegicus with 88 samples.

Results

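Among the 17252 genes measured in the infralimbic cortex (IL) of Heterogeneous Stock (HS) rats, 4 were taken here as 2 reciprocal pairs. Pair 1 was ENSRNOG00000050374, called its first member, with ENSRNOG00000049895, its second. Pair 2 was ENSRNOG00000006612 with ENSRNOG00000049132, in the same order. The genes were chosen by their measured values, which within a pair are opposite among rats while the summed adjusted counts stay nearly constant. The opposition, the sums and the classes are therefore described below without a test. Tests were kept for the relation of the members and their shares to sex and rat batch, of the pairs to each other, and of other genes to the pairs. The expression table lists Ensembl identifiers without names, and the RefSeq gene table used here holds no Ensembl rat identifiers to match them. The function and position of the members are therefore not given.

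The IL is a medial prefrontal area of the cortex. HS rats are outbred descendants of a set of inbred founder strains, so the chromosomes of each rat are a mosaic of founder haplotypes. The rats were naïve to behavioral and drug treatment and were group housed. RNA came from dissected bilateral IL tissue, with 1 polyA library per rat, and the libraries analysed were those of 40 females and 41 males. They came from 5 rat batches, with 16 rats in batch 2, 25 in batch 3, 24 in batch 4, 1 in batch 5 and 15 in batch 6. Because names were not available, the tissue label could not be checked against marker genes.

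RSEM, which the authors used to estimate a read count per gene, assigns a read that matches several genes in estimated shares. For genes with nearly the same sequence, such as recent duplicates, a small difference between the reads of a rat and the reference transcripts can therefore decide which gene the reads are counted on. A variant that removes or silences a gene also leaves its count low. A biallelic variant of this kind sorts an outbred population into 2 homozygous classes and a heterozygous class, and into fewer visible classes if heterozygotes look like either homozygote.

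Values are adjusted counts, the upper-quartile adjusted read counts that remain when the deposited log2 values are turned back and 1 is subtracted. The spacing of the low whole numbers in a library gives the adjusted counts per read (the step factor, 0.556 to 2.99). Read in this way, the libraries held 5.97 to 31.8 M reads (M, mega) on genes, with a median of 17.5 M. Depth was lowest in male 14, and the next library held 12.2 M. The columns of the table ran in 3 ascending stretches of 22, 16 and 43 rats whose meaning the labels do not give. These stretches were kept as a technical grouping beside the rat batches.

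ENSRNOG00000050374, the first member of pair 1, took either almost no reads or most reads of the pair. It was listed at 0 in 27 rats, at 1 adjusted count in 2 rats (female 22 and male 27), and between 309 and 505 in the other 52, with a median of 416. No rat lay between 1 and 309. ENSRNOG00000049895, the second member, was expressed in every rat, at 2 separate levels. In the 29 rats that lacked the first member it lay between 389 and 678, with a median of 538. In the other 52 it lay between 97 and 158, with a median of 131, and the ranges did not overlap.

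The first member's share of the pair's sum made the same split on a scale from 0 to 100%. The share was at most 0.153% in the 29 rats and between 74.8% and 76.6% in the 52 rats, with an empty interval of 74.7 percentage points between them. The next largest gap in the order of rats was 0.562 points. For the 27 rats at 0, a limit of 3 reads (counting error only) over the pair's reads has a median of 0.568% and a highest value of 1.75% over the 29 rats. The highest limit belonged to male 14, the library of lowest depth, where the pair held 172 reads.

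**Figure D1:**
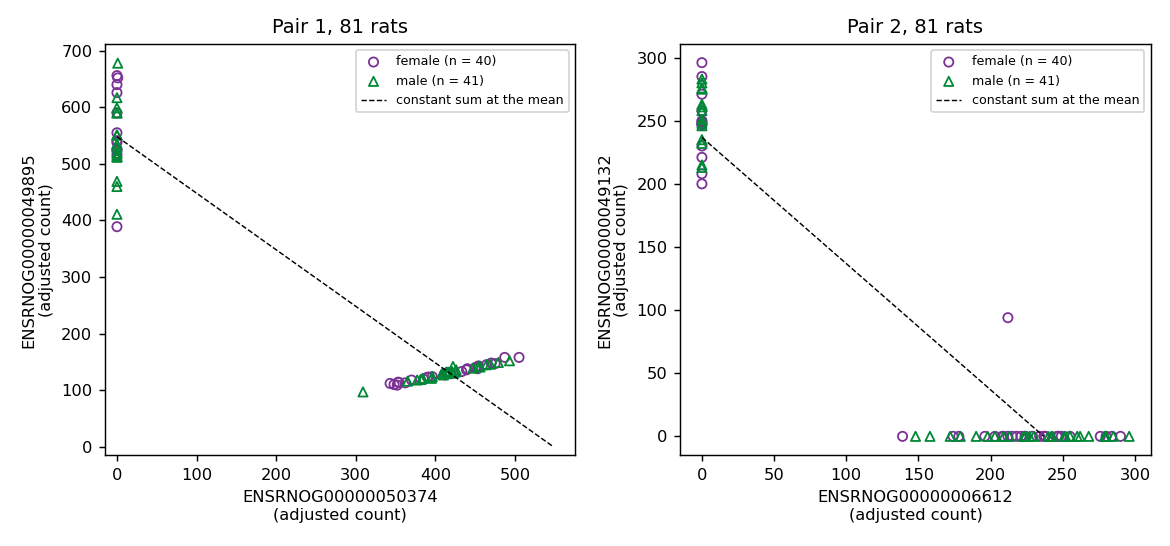
Adjusted count of the second member (y axis) against the first member (x axis) of each pair, 1 point per rat, circles for 40 females and triangles for 41 males, with a dashed line where the sum equals its mean. Pair 1 forms a column at 0 or 1 on the x axis and a rising line of 52 rats between 309 and 505. Pair 2 lies on the axes except for 1 female at 212 and 94.

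Although the members were opposite over all 81 rats, they rose and fell together among the 52 rats that had both. In these rats Pearson's r of the adjusted counts was 0.986 and Spearman's rho was 0.985, given as a description because the class was drawn from the same values. The split of the reads was nearly fixed. The first member took 76.2% of the pair's reads over the 52 rats, with an SD between rats of 0.318 points. Counting independent reads at these depths (312 to 897 reads per rat, median 544) would give a binomial SD of 1.83 points in the median rat. The observed variance was 0.0255 of the binomial one. All 52 rats lay within 1 binomial SD of the pooled share. In reads, the count of the first member differed from 76.2% of the pair's total by a median of 0.875 reads and by at most 5.74.

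No other gene of at least 30 mean reads divided reads with either member as closely. This is a description and not a test, because the pair and the 52 rats were chosen from the same values. With ENSRNOG00000050374 and each of 13232 other genes of at least 30 mean reads in the same 52 rats, the lowest ratio of observed to binomial variance was 1.26, and the median was 5.63. With ENSRNOG00000049895 the lowest was 0.682 and the median 2.67. No other gene was under 0.5 with either member. In the 52 rats the variance of the split between the members of pair 1 was below the binomial one, and the cause was not tested. The ratio of 76.2% is one of reads, not of expression per length, since gene lengths were not used. The median share was 76.2% both in the 28 females and in the 24 males among the 52 rats.

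**Figure D2:**
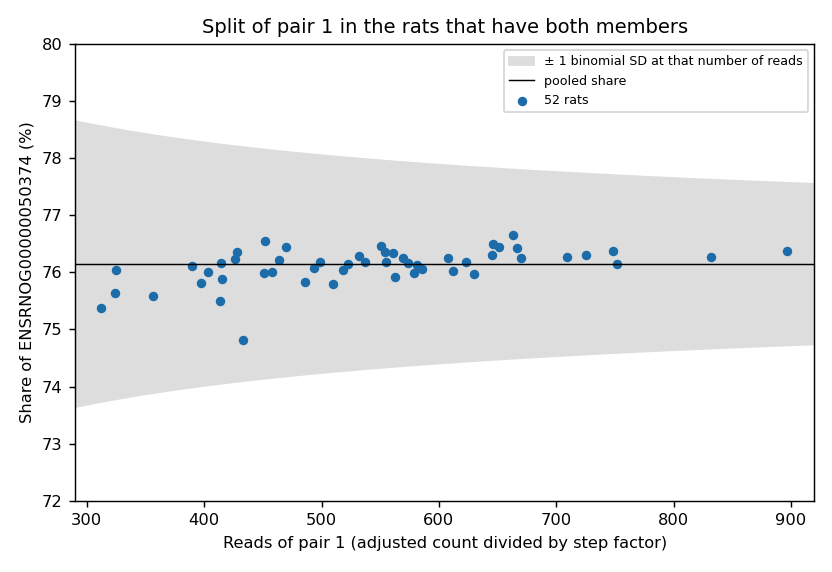
Share of ENSRNOG00000050374 in the reads of pair 1 (y axis, percent, from 72 to 80) against the reads of the pair (x axis) in the 52 rats with both members. The line is the pooled share of 76.2% and the grey band is 1 binomial SD to each side, and all 52 points lie inside the band.

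In pair 2 the exchange was all or none in 80 of the 81 rats. ENSRNOG00000006612, the first member, was listed at 0 in 26 rats, and ENSRNOG00000049132 lay between 200 and 296 in these rats, with a median of 249.5. In 54 rats ENSRNOG00000049132 was listed at 0, and ENSRNOG00000006612 had a median of 229.5 and a highest value of 296, which is a range of 7.13 to 8.21 on the log2 scale. Neither member had a count of 1 or 2 in any rat. A limit of 3 reads (counting error only) on a member at 0 corresponds to a median of 1.29% of the pair's reads in the 26 rats and 1.30% in the 54 rats, with highest values of 1.73% and 3.44%.

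The remaining rat, female 10 of rat batch 3, was the only one with reads on both members. It had 212 adjusted counts of ENSRNOG00000006612 and 94 of ENSRNOG00000049132. The first member held 69.2% of 299 reads, with a 95% binomial confidence interval of 63.7 to 74.4% (exact Clopper-Pearson, counting error only). Its sum of 306 was the highest of the 81 rats, and the next was 296. Its library held 17.5 M reads, close to the median. In pair 1 the same rat had 362 and 113 adjusted counts, a share of 76.2% like that of the other 51 rats of its class.

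**Figure D3:**
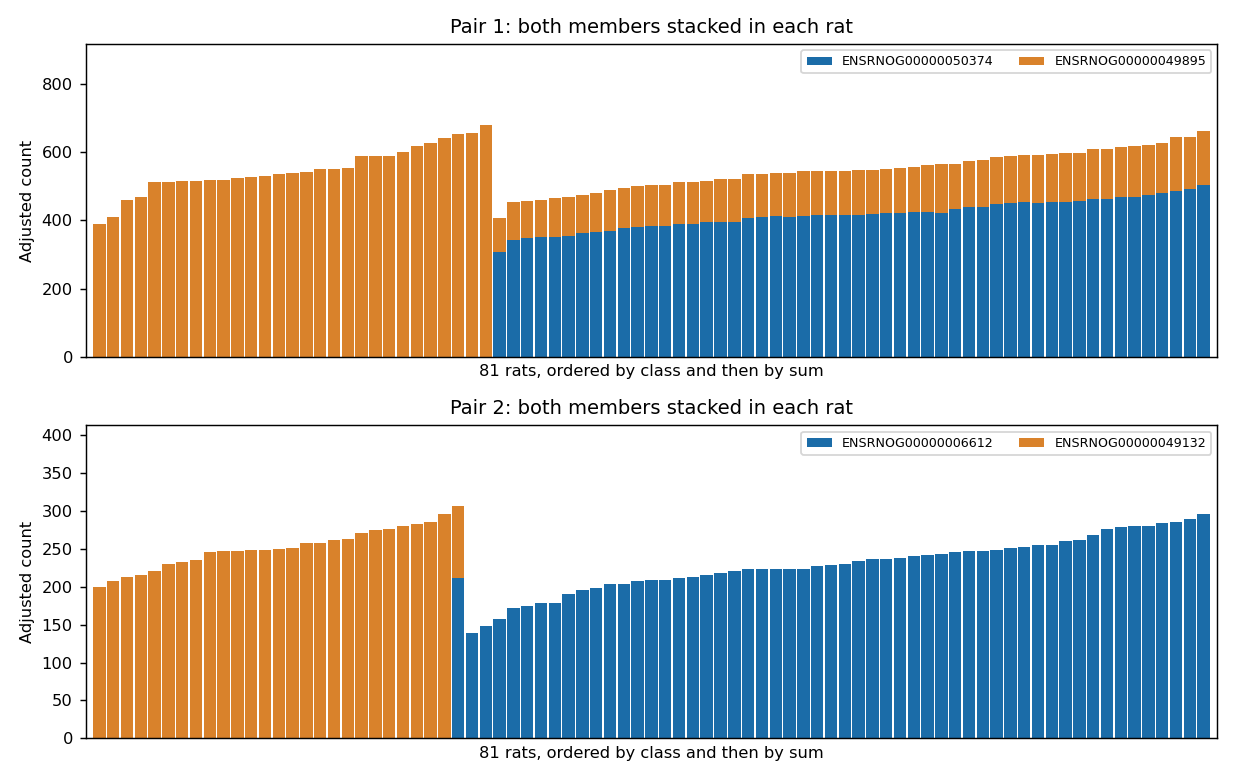
Adjusted counts of the first member (blue) and the second member (orange) of each pair, stacked, with 1 bar per rat, ordered by class and then by sum. The orange bars of 29 rats in pair 1 reach the height of the 52 stacked bars, and in pair 2 only 1 bar has both colors.

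The sums varied no more than an ordinary gene of the same level. In pair 1 the coefficient of variation (CV) over rats was 76.2% for the first member and 73.4% for the second, and 11.1% for their sum, which lay between 389 and 679 with a median of 546. Among 1322 other genes with a mean within a factor of 1.2 of the sum's mean (548), the median CV was 12.9%, and 30.3% of them had a lower CV than the sum. In pair 2 the CVs were 71.8% and 145%, and that of the sum was 14.9%, with a median sum of 240 and a highest sum of 306. Of 1125 genes of similar mean (237), 38.3% had a lower CV, and their median was 16.5%. The less variable member had a higher CV than 99.5% of those genes in pair 1 and 99.6% in pair 2. Counting error alone would give a CV of about 4.24% for the sum of pair 1 and 6.50% for that of pair 2. In pair 1 the second member alone, with a median of 538 in the 29 rats, stood at the level of the whole sum in the 52 rats, whose median was 547. In pair 2 the median sum was 249.5 in the 26 rats and 229.5 in the 54.

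**Figure D4:**
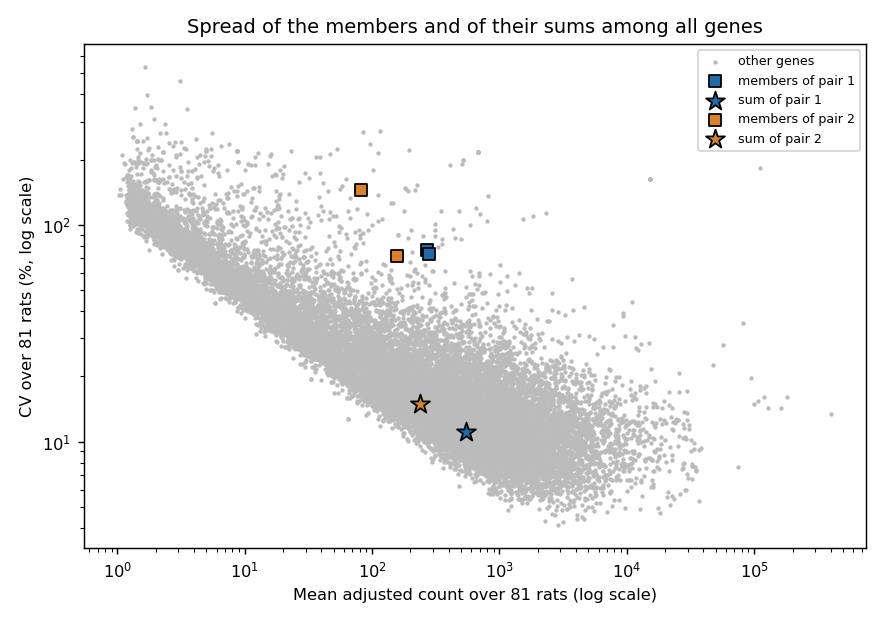
CV over 81 rats (y axis, percent, log scale) against mean adjusted count (x axis, log scale) for every gene with a mean of at least 1 (grey), with the members of each pair (squares) and their sums (stars). The members lie above the cloud of genes at 71.8 to 145%, and the sums lie inside it at 11.1 and 14.9%.

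How often this pattern occurs in the table was examined with thresholds set after the values were seen. Of 264 genes with a mean of at least 30 and a CV above 50%, 34716 pairs were formed, and 22 had adjusted counts correlated below -0.7. In 3 of these the CV of the sum was under 25%. They were the 2 pairs described here and ENSRNOG00000019566 with ENSRNOG00000048056. The members of this other pair had means of 38.8 and 49.5 and their sum had a CV of 19.9%.

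The class sizes were set beside the genotype proportions of 1 biallelic variant at Hardy-Weinberg proportions, as a description with no p-value. If the 29 and 52 rats of pair 1 were both homozygous classes, the allele without the first member would have a frequency of 35.8%, and 37.2 heterozygotes, 10.4 and 33.4 homozygotes would be expected. A class between the others held 0 rats. If heterozygotes look like either homozygote, a pair of classes leaves nothing to compare, because the allele frequency is itself read from the class size. With the 29 rats as the homozygotes of the allele without the first member, its frequency would be 59.8%. The 52 rats would then hold 38.9 heterozygotes and 13.1 homozygotes of the other allele. With the 52 rats as the homozygotes of the other allele, the allele without the first member would have a frequency of 19.9%. The 29 rats would then hold 25.8 heterozygotes and 3.20 homozygotes. The genotypes were not used here, and these readings cannot be told apart from class sizes alone.

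In pair 2 the 3 classes of 26, 1 and 54 rats would correspond to an allele frequency of 32.7%, for which 8.67, 35.7 and 36.7 rats would be expected. The middle class thus held 1 rat where about 36 would be expected of 3 codominant genotypes. With the 26 rats as homozygotes and the other 55 as the rest, the frequency would be 56.7%, with 39.8 heterozygotes and 15.2 homozygotes. With the 54 rats as homozygotes, it would be 18.4%, with 24.3 heterozygotes and 2.73 homozygotes. In pair 1 the 52 rats had reads of both members, and a reading with these rats as the heterozygotes was not set out here. Whether a variant underlies the classes of either pair was not tested.

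Neither pair was split by sex. The 29 rats without ENSRNOG00000050374 were 12 of 40 females and 17 of 41 males, and the 26 rats without ENSRNOG00000006612 were 12 of 40 females and 14 of 41 males. In a linear model on the log2 values of all genes with rat batch as a covariate, 0.197% of 17252 genes differed between the sexes, and 0 of the 4 members did (limma moderated test, threshold 0.05 after Benjamini-Hochberg adjustment). Without adjustment 0 of the 4 passed 0.05 either, beside 1339 of the 17248 other genes. The members of a pair mirror each other, so these are not 4 separate outcomes. The largest male minus female difference was that of ENSRNOG00000050374, at -1.07 on the log2 scale (standard error 0.94, limma adjusted p-value 0.842). For ENSRNOG00000049895 the difference was 0.25 (standard error 0.23). The differences of ENSRNOG00000006612 (-0.11, standard error 0.82) and ENSRNOG00000049132 (-0.08, standard error 0.83) were small beside their errors, which the all or none values make large. The mean share of the first member was 44.6% in males and 53.3% in females for pair 1 (permutation test within rat batches, two-sided, 100000 resamples, p-value 0.311), and 65.9% and 69.2% for pair 2 (p-value 0.817). Adjusted over the 9 permutation tests made on sums, shares and the relation of the pairs, these p-values were 0.560 and 0.909. Those of the sums are not given, because their constancy entered the choice.

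The classes were also found in each larger rat batch. In pair 1 the rats without the first member were 5 of 16 in batch 2, 8 of 25 in batch 3, 10 of 24 in batch 4 and 6 of 15 in batch 6. In pair 2 they were 7, 10, 4 and 5 of the same totals, so batch 4 had the lowest proportion at 16.7% and batch 2 the highest at 43.8%. The share of the first member did not differ between the 4 batches beyond the spread between rats, with F statistics of 0.233 for pair 1 (permutation test within sex, p-value 0.881) and 1.53 for pair 2 (p-value 0.211). By column stretch, the rats without the first member made up 31.8%, 18.8% and 44.2% in pair 1 and 40.9%, 50.0% and 20.9% in pair 2. Of all genes, 57.6% differed between batches 2, 3, 4 and 6 (limma moderated F test, 80 rats, sex as a covariate), and of the 4 members 0 did. Without adjustment 0 of the 4 passed 0.05 either, beside 10722 of the 17248 other genes. The separate levels of the classes make the spread of each member between rats large, which limits what this F test can show for the members. The adjusted p-values of the members were between 0.205 and 0.848 (limma). With values turned to normal scores within each gene, 2 of the 4, the second members ENSRNOG00000049895 and ENSRNOG00000049132, passed the threshold, with adjusted p-values of 0.00969 and 0.0454 (limma), where 61.6% of all genes passed it.

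The sums had different means in the rat batches, given here as a description because the constancy of the sums entered the choice of the pairs. In bulk tissue, fewer cells of a type and less RNA per cell cannot be told apart in such a difference. For pair 1 the mean sum was lowest in batch 3, at 515 ± 59.4 adjusted counts (SD, n = 25), and highest in batch 6, at 605 ± 52.02 (SD, n = 15). Between these lay batch 2, at 529 ± 50.8 (SD, n = 16), and batch 4, at 560 ± 46.0 (SD, n = 24). Pair 2 ran in the other direction from batch 2 to batch 6. Its mean sum was highest in batch 2, at 273 ± 14.7 (SD, n = 16), and lowest in batch 6, at 214 ± 36.5 (SD, n = 15). Batch 3 stood at 238 ± 31.95 (SD, n = 25) and batch 4 at 226 ± 30.5 (SD, n = 24). Among all genes, 57.6% differed between batches, as stated above. Batches 4 and 6 lie wholly in the last stretch, so labelled batch and stretch are largely confounded. By sex, the mean sums were 551 ± 64.9 adjusted counts for the 40 females (SD) against 545 ± 57.2 for the 41 males in pair 1, and 236 ± 35.1 against 238 ± 35.8 in pair 2.

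**Figure D5:**
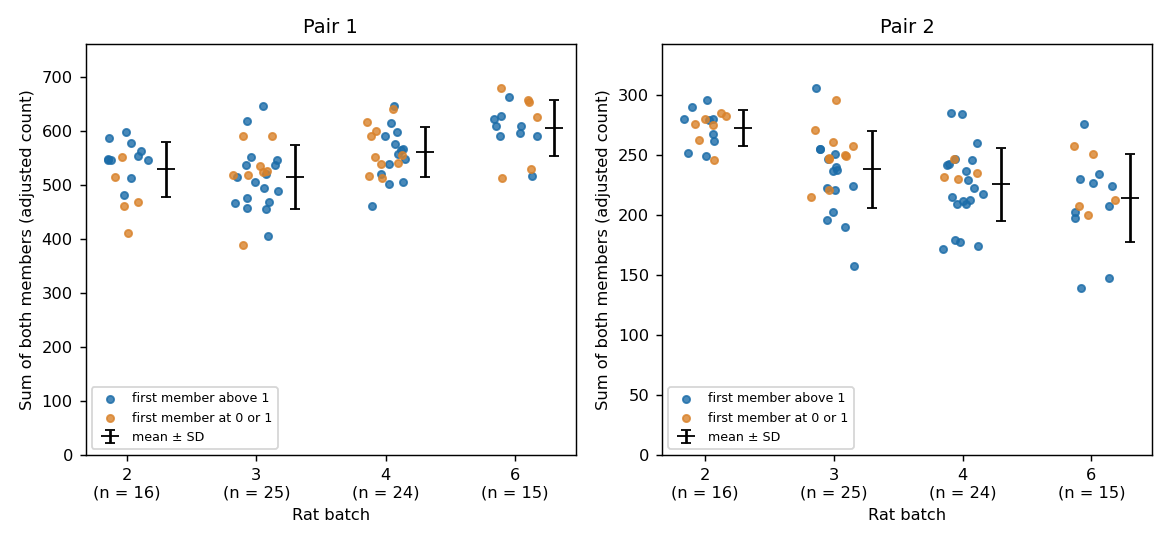
Sum of both members (y axis, adjusted count) in each rat by rat batch (x axis), with blue points for rats whose first member was above 1 and orange points for rats whose first member was at 0 or 1, and bars for the mean ± SD. Both colors occur in batches 2, 3, 4 and 6, the mean sum of pair 1 is highest in batch 6 (605) and that of pair 2 is highest in batch 2 (273).

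Whether the pairs split the rats independently was examined next, since the choice of genes did not relate pair 1 to pair 2. Of the 29 rats without ENSRNOG00000050374, 9 (31.03%) were also without ENSRNOG00000006612, and of the other 52 rats 17 (32.7%) were. If the classes were independent, 9.31 and 16.7 rats would be expected. The rats with the first members of both pairs and no ENSRNOG00000049132 numbered 34, where 34.7 would be expected, and those without ENSRNOG00000050374 but with ENSRNOG00000006612 numbered 20, where 19.3 would be expected. Between the shares of the first members, Spearman's rho was 0.15 (permutation test, two-sided, 100000 resamples, p-value 0.195, adjusted 0.474 over 9 tests) and Pearson's r was -0.02 (permutation p-value 0.929). The usual repeat without the 2 rats farthest from the median was not defined, because 27 rats tied at a pair 1 share of 0. Because the shares of pair 1 are tied or nearly tied within its classes, rho also ranks small differences within a class. Within batches, rho was 0.43 in batch 2 (n = 16), -0.16 in batch 3 (n = 25), 0.17 in batch 4 (n = 24) and 0.15 in batch 6 (n = 15), with permutation p-values of 0.108, 0.440, 0.453 and 0.607. No association between the pairs was detected with 81 rats.

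The last comparison asked which other genes moved with the ratio of a pair. The log2 ratio of the first to the second member was entered as a term beside rat batch and sex in a model of each of the 17248 other genes. For pair 1, 0.0058% of the genes, which is 1 gene, passed the threshold of 0.05 after adjustment (limma moderated test). Unadjusted, 621 passed it, which is under the share of 0.05 that would pass if no gene were associated. The gene that passed after adjustment, ENSRNOG00000017762, was expressed near the floor, with a median of 3 adjusted counts and a range of 0 to 15. Its log2 value fell by 0.08 for each unit of the ratio (standard error 0.02, limma adjusted p-value 0.0111). In the 29 rats its lowest and highest values were 1 and 15, and 13 of them had 3 counts or fewer. In the 52 rats they were 0 and 8, and 44 had 3 counts or fewer, so the ranges overlapped. The call was lost without rat batch 2, 3 or 4, with 0 genes in each case, although the slope remained at -0.08 without batch 2 or 3 and -0.07 without batch 4, with fewer rats.

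The other genes named for pair 1 did not pass the threshold. ENSRNOG00000013877 had a slope of -0.03 (adjusted p-value 0.656, limma), ENSRNOG00000050465 one of 0.12 (adjusted p-value 0.218, limma) and ENSRNOG00000047456 one of 0.01 (adjusted p-value 0.656, limma). ENSRNOG00000050465 ranged from 0 to 47 in the 29 rats and from 0 to 82 in the 52, so these also overlapped. For pair 2, 0% of the other genes passed (limma), and 595 passed 0.05 unadjusted, again under a share of 0.05. Adjusted p-values were tied at their smallest value of 0.999 (limma), so the genes named were those of smallest unadjusted p-value in each direction. They were ENSRNOG00000016519 and ENSRNOG00000028016 with positive slopes and ENSRNOG00000015036 and ENSRNOG00000056243 with negative slopes. The members of one pair did not follow the ratio of the other, with adjusted p-values of at least 0.998 (limma).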

How the data were processed

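IL tissue from HS rats was sequenced as 1 polyA library per rat. Per the study's methods and the labels, the authors used cutadapt for trimming and RSEM for alignment to rat transcripts from Ensembl (build Rnor_6.0 in the processing notes), adjusted estimated counts to the upper quartile and left out genes with few reads. They deposited log2 values of the adjusted count plus 1. Versions were not given in the sources used here. Of values under 100, 100.0% were whole within 0.01 when turned back, and the upper quartile was 873 to 889 in every library. Of 88 labelled libraries, 7 marked as removed were not analysed here.

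The step factor was the one whose rounded multiples best matched the counts of each low whole number in a library. In 40 simulated libraries it was within 1% of the true factor in 100.0%. These were simulated with the rounding that the fit assumes, so another rounding was not tested. The lowest step factors of the real libraries, from 0.556, lay below those simulated. Rats were placed in classes where the gap in the first member's share was wider than 0.05. Linear models were fitted to all genes with limma 3.58.1 (R 4.3.3, intensity trend, Benjamini-Hochberg). All differences refer to log2(adjusted count + 1), a scale that compresses those of low genes. On simulated data with 200 of 17252 genes changed, limma recovered 100.0% of sex differences of 2 residual SDs with 14 false calls, and 100.0% of slopes of 1 residual SD per SD of the pair 1 ratio with 8. Sums and shares were compared by permutation (numpy 2.4.6), and the sums, whose constancy entered the choice, are given without p-values. Columns were matched to libraries by title. Replicate numbers only name rats.

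The members and comparisons were chosen with earlier results of these data known, and the search for like pairs and the variance of the read split were added after their values were seen. P-values measure the spread between rats. Named genes were the 4 members and, for each pair, in either direction, 2 other genes from the test against its log2 ratio. These had the smallest adjusted p-values, whether or not they passed, with ties ordered by unadjusted p-value. Neighbouring genes, genes with related symbols and cell type markers, planned only if a reference paired identifiers with names, were not examined. Alternatives were a pseudocount of 10, only genes of mean log2 of at least 5, column stretch or 5 expression components as covariates, normal scores, median centring or scaling, the share as the term, other class rules, other strata for permutation, and leaving out a batch or male 14.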

Additional observations from a re-analysis of the deposited data

How the results depend on the processing

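No paired analysis was possible because numbers within a sex only name rats and tie no female to a male. Of 79 alternatives, 68 were counted as unchanged, in direction and side of the threshold where a test was made. For counts of genes only the number was compared. The 79 include the sums, their CVs and the class counts, which come from values used for the choice. The 68 are therefore no measure of how firm the comparisons are. The single gene that followed the ratio of pair 1 became 2 with a pseudocount of 10 (ENSRNOG00000017762 and ENSRNOG00000050465), and 0 with genes of mean log2 of at least 5, where it was not tested, and without rat batch 2, 3 or 4, where fewer rats were tested. With 5 components as covariates there was again 1, but it was ENSRNOG00000060293, with a positive slope, and not ENSRNOG00000017762, and the cause was not tested. The sums, whose constancy entered the choice, had F statistics between batches of 9.68 and 10.2, given as a description. Permuting the sums within column stretches in place of within sex left these F statistics at 9.68 and 10.2, since only the p-values depend on the strata. Those p-values are not given, because a test of sums chosen for their constancy cannot decide whether batches differ. With normal scores 2 members, ENSRNOG00000049895 (F 4.45) and ENSRNOG00000049132 (F 3.11), differed between batches in place of 0, beside 61.6% of all genes, and the cause was not tested. The relation between the pairs turned from 0.15 to -0.16 within rat batch 3 and to -0.0208 as Pearson's r, past the threshold in neither. The repeat without the 2 most distant rats was not run, because 27 rats tied. A Gaussian mixture divided pair 1 into 3 classes in place of 2, of 29, 5 and 47 rats, by cutting the narrow upper class, and the gap rules left 29 and 52. Sex differences of members changed sign without passing the threshold for ENSRNOG00000006612 without rat batch 2 (0.25), and for ENSRNOG00000049132 without rat batch 3 (0.38) or 6 (0.0710) and with column stretch as a covariate (0.0637). ENSRNOG00000049132 was itself removed by the filter on mean log2.

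Depth limits the members at 0: in male 14, the shallowest library, a share of up to 3.44% in pair 2 would have gone unseen. Intervals and limits cover counting error only. Groups of 4, 7 and 8 rats of one sex and batch were examined by Dixon's rule, the gap of an extreme rat over the range. In these 3 groups 0 rats stood apart in the sum of either pair. Larger groups were not examined. The constancy of the sums entered the choice, so this is a description.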
